A study of Mus musculus with 6 samples.

Results

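The genes described here are those of the cytosolic ribosomal proteins, measured as messenger RNA in cultured microglia of newborn mice. They were taken from the deposited expression table by symbol: Rpl or Rps followed by a digit, and Rplp0, Rplp1, Rplp2 and Rpsa, without the Rps6k kinases and without pseudogene symbols that contain -ps. Of 54347 gene rows, 94 matched, and the 88 with a mean of at least 1 TPM over the 6 libraries are the members described below. TPM is an abundance of transcripts per unit of their length that sums to the same total in every library. The members were thus chosen by their symbol and selected on their mean TPM over the 6 libraries, and not on the difference between genotypes. Just above that limit were Rps3a3 at 2.21 TPM and Rps3a2 at 3.31 TPM. Just below it were Rpl6l at 0.12 TPM, Rpl3l at 0.094 TPM and Rps23rg1 at 0.017 TPM, while Rpl10l, Rps12l1 and Rpl32l were listed at 0 in every library. All 88 members also had a mean of at least 1 TPM in each genotype taken alone.

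The study compared 3 libraries from Plcg2-/- microglia, which lack a working gene for phospholipase C gamma 2, with 3 from wild-type Plcg2+/+ microglia. The enzyme signals below immune receptors of these cells. Both genotypes came from C57BL/6 littermates, and forebrains were taken at postnatal day 2 to 3. All cells went through mixed glial culture with 10% serum and GM-CSF, a growth factor for myeloid cells, at 5 ng/mL, were shaken off on day 12 to 13, and were kept for at least 72 h in 1% serum with 0.5 ng/mL GM-CSF. The sources used here do not give how the Plcg2 allele was made. Libraries are named by genotype and replicate number. Nothing in the labels ties a replicate to its own pup or culture, and the p-values therefore cover only how much these 6 samples vary, possibly for technical reasons.

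Ribosomal proteins are the protein part of the ribosome. The Rps genes encode those of the small, 40S subunit, which reads the messenger RNA, and the Rpl and Rplp genes those of the large, 60S subunit, which joins amino acids. Each is normally built into the ribosome once, the acidic stalk proteins excepted, and cells make them in matched amounts. Their mRNAs are known for a start in a run of pyrimidines, the terminal oligopyrimidine or TOP tract, through which the mTOR pathway and the RNA-binding protein LARP1 control their translation and stability. In macrophages and microglia, demand for ribosomes follows growth and activation. Of the 88 members, 77 encode ribosomal proteins in the strict sense, 46 of the large and 31 of the small subunit. Another 10 are close relatives or retrocopies (Rpl7l1, Rpl22l1, Rpl36al, Rpl37rt, Rpl39l, Rps3a2, Rps3a3, Rps4l, Rps27l and Rps27rt), and Rps19bp1 encodes a protein that binds one and is counted apart. The members lie on 19 chromosomes, 84 are annotated as protein coding, and 30 carry at least 1 small nucleolar RNA gene within them on the same strand.

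The sequence around the transcription start is shown for 8 members, since the pyrimidine-rich start is the feature these otherwise unlinked genes are known to share. RefSeq (GRCm38.p6) gave start windows for 65 of the 88 members, and Rpl29, Rplp1 and Rps20 were not among them. Of the 65, 14 had a RefSeq start at a C with at least 5 pyrimidines in a row, and 51 did not. The motif searched was CTTTCC, a pyrimidine stretch, in capitals where it occurs. Each line holds the 10 bases before the RefSeq start and the first 20 of the transcript, 5′ to 3′ on the gene's own strand. Rps10 and Rpl15, of the small and the large subunit, have the motif inside a long pyrimidine run. Rpl28 and Rpl38 have it in their first transcribed bases. Rps27 and its copy Rps27rt differ before the motif and share the letters from it onward. Rpl7l1 and Rpl12, to which the results return, lack it in this window.
Rps10, chr17:27635225-27635254, minus strand: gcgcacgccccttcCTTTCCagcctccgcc
Rpl15, chr14:18270967-18270996, minus strand: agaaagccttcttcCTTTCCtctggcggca
Rpl28, chr7:4792955-4792984, plus strand: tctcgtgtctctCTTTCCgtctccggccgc
Rpl38, chr11:114668570-114668599, plus strand: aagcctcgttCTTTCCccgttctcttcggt
Rps27, chr3:90213629-90213658, minus strand: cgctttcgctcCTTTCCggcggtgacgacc
Rps27rt, chr9:114982720-114982749, minus strand: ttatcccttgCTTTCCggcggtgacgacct
Rpl7l1, chr17:46782637-46782666, minus strand: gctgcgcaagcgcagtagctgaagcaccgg
Rpl12, chr2:32961702-32961731, plus strand: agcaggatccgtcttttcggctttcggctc

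Within 20 bases on each side of the start, CTTTCC occurred on the sense strand in 12 of 65 members (18.5%) and in 2.30% of 27025 genes with a RefSeq window. On either strand the shares were 18.5% and 4.30%. Over the whole 300 bases, CCGGAAG, the core that ETS factors bind, occurred on either strand in 26 of 65 members and in 9.93% of all genes. CACGTG, the E-box that MYC and MAX bind, reads the same on both strands and occurred in 9.23% of members against 8.09% of all genes. These matches describe letters in a window and are not mapped binding sites. The log2 fold change, Plcg2-/- over Plcg2+/+, had a median of 0.47 in the 11 members whose printed window holds CTTTCC and 0.41 in the 54 whose window does not.

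One of the 6 libraries stood apart for these genes, Plcg2+/+ 2, and the shares, the counts of called members and the medians of the main groups are given with and without it. It was the lowest of all libraries for 82 of 88 members. Plcg2 itself was at 16.05, 16.7 and 16.1 TPM in the Plcg2-/- libraries and at 45.2, 39.7 and 54.9 TPM in the Plcg2+/+ libraries. Of 10 microglia and macrophage markers 9 were tested, and 3 were higher and 2 lower in Plcg2-/-. The receptor genes P2ry12 and Fcrls and the calcium-binding protein gene Aif1 had log2 fold changes of 2.03, 3.28 and 2.29 (limma adjusted p = 0.0166, 0.000922 and 0.0333; 0.0616 for Aif1 with median-of-ratios scaling), and the integrin gene Itgam and the chemokine receptor gene Cx3cr1 -2.38 and -1.27 (limma adjusted p = 0.000946 and 0.0203). With the replicate block 5 were higher, C1qa and Ptprc added. Csf1r, the receptor for a macrophage growth factor, lay between 601 and 780 TPM in Plcg2-/- and between 503 and 685 TPM in Plcg2+/+, while Tmem119 and Cx3cr1, which define resting brain microglia, were near 0, at no more than 0.57 TPM in Plcg2-/- and no more than 2.93 TPM in Plcg2+/+. The 8 astrocyte markers summed to 29.1 to 40.8 TPM in Plcg2-/- and 14.01 to 21.9 TPM in Plcg2+/+, of which Aldh1l1 made up most (1.13; limma adjusted p = 0.0282), and Sox9, Aqp4 and Gja1 were at no more than 1.25 TPM in all 6. Oligodendrocyte lineage markers summed to 47.6 to 84.9 TPM in Plcg2-/- and 50.1 to 116 TPM in Plcg2+/+, with Mbp at most of it and with Sox10 and Mog near 0; Cspg4 alone was called, lower by a log2 fold change of -2.83 (limma adjusted p = 0.00141). Neuron markers summed to 4.29 to 9.89 TPM in Plcg2-/- and 3.10 to 10.95 TPM in Plcg2+/+, fibroblast markers to 0.45 to 3.07 TPM in Plcg2-/- and 0.77 to 1.94 TPM in Plcg2+/+, and endothelial markers to 19.7 to 29.1 TPM in Plcg2-/- and 16.4 to 24.0 TPM in Plcg2+/+. That last sum joins Kdr, higher at 1.56, and Flt1, lower at -1.52 (limma adjusted p = 0.00477 and 0.00595). Y-linked genes, 4 of them summed by TPM, gave 58.6 TPM in Plcg2-/- 1, 107 TPM in Plcg2+/+ 2 and 112 TPM in Plcg2+/+ 3, and under 1 TPM in the others. With the Y-linked level as covariate the members' median log2 fold change was 0.41, beside 0.44 without it, and 0 members were called, against 6.66% of all genes higher and 2.96% lower. The part of other cells in the results was not tested.

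Ribosomal protein transcripts made up a larger share of the RNA in Plcg2-/- microglia. The 88 members took 8.41%, 8.22% and 8.19% of all TPM in Plcg2-/- 1, 2 and 3, against 6.40%, 4.52% and 7.43% in Plcg2+/+ 1, 2 and 3. The means were 8.28 ± 0.121% and 6.12 ± 1.47% (SD, n = 3 each), a difference of 2.16 percentage points. The 3 Plcg2-/- shares lay close together and above all 3 Plcg2+/+ shares, which were spread widely. Without Plcg2+/+ 2 the difference was 1.36 points. A share of bulk RNA cannot tell more transcripts per cell from a different mix of cells. It also depends on the rest of the RNA: mitochondrially encoded transcripts took 5.00%, 8.23% and 8.68% in Plcg2-/- and 15.6%, 17.3% and 13.6% in Plcg2+/+. As shares of nuclear-encoded TPM the members stood at 8.86%, 8.96% and 8.97% in Plcg2-/- and at 7.58%, 5.47% and 8.60% in Plcg2+/+, so the groups again did not overlap, with a difference of 1.71 points, or 0.839 without Plcg2+/+ 2. Median-of-ratios scaling multiplies each library by a constant and so leaves these shares as they were. What it changes is the level, given here as the members' scaled sum in percent of the TPM total before scaling. In this level the groups did overlap, at 7.67%, 7.89% and 7.39% in Plcg2-/- and 6.88%, 5.11% and 7.56% in Plcg2+/+. The difference in level was 1.13% of that total, or 0.429% without Plcg2+/+ 2. When TPM was rescaled without the mitochondrially encoded genes, the members' median log2 fold change was 0.31, beside 0.07 over all genes, with 82 members positive, against 57.1%, and 0 called higher or lower, against 9.68% and 6.49% of all genes.

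**Figure D1:**
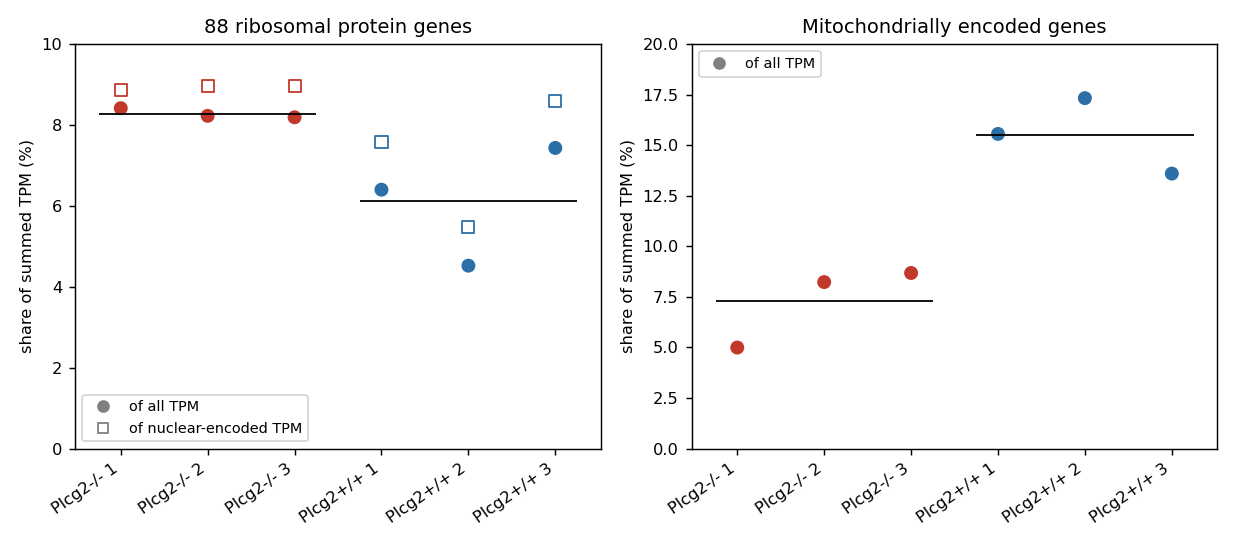
Share of summed TPM (%, y axis) in each library (x axis) for the 88 ribosomal protein genes (left) and the mitochondrially encoded genes (right). Filled circles are shares of all TPM with a line at each genotype's mean, and open squares are shares of nuclear-encoded TPM; the 3 Plcg2-/- libraries sit at 8.19 to 8.41% of all TPM and the 3 Plcg2+/+ libraries at 4.52 to 7.43%.

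Gene by gene, the difference between Plcg2-/- and Plcg2+/+ was small and mostly did not pass the test. On the log2(TPM + 1) scale the members had a median log2 fold change of 0.44, with the middle of them between 0.36 and 0.52, against a median of 0.19 over all 12652 genes tested. In limma, with p-values adjusted over all genes by the Benjamini-Hochberg method, 2 members were higher in Plcg2-/- at an adjusted p below 0.05, where 15.6% of all genes tested were. No member was lower, where 5.31% of all genes were, and 38 members (43.2%) had an unadjusted p below 0.05, against 37.6% of all genes. The fraction called among the members was thus below the background. The direction was shared more widely: 84 of 88 members had a positive fold change, against 67.5% of all genes, and in 60 of 88 all 3 Plcg2-/- values lay above all 3 Plcg2+/+ values, against 32.4%. In 0 of 88 they all lay below, against 10.9%. Median-of-ratios scaling moved the median of all genes to -0.0045 and that of the members to 0.23, with 79 of 88 positive, against 49.5%, and 0 called, against 7.71% of all genes higher and 7.85% lower.

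Rpl29 and Rpl7l1 were the members that rose. Rpl29 (ENSMUSG00000048758.14, GRCm38 chr9:106429454-106431568, plus strand, protein coding) encodes a protein on the surface of the large subunit. It was at 1039.7, 1048 and 1147 TPM in Plcg2-/- libraries and at 702, 483 and 756 TPM in Plcg2+/+ libraries, so no Plcg2+/+ library came near the Plcg2-/- values. Its log2 fold change was 0.76 ± 0.19 (SE; limma adjusted p = 0.0316). Rpl7l1 (ENSMUSG00000063888.7, chr17:46773907-46782672, minus strand, protein coding) encodes a relative of the large-subunit protein Rpl7. It stood at 60.3, 51.5 and 52.1 TPM in Plcg2-/- and at 39.995, 32.2 and 42.4 TPM in Plcg2+/+, again without overlap. Its log2 fold change was 0.51 ± 0.14 (SE; limma adjusted p = 0.0405). With median-of-ratios scaling the limma adjusted p was 0.0628 for Rpl29 and 0.124 for Rpl7l1, and leaving out 1 library at a time raised it to at most 0.107 and 0.145. With the replicate number as a block 4 members were higher, against 19.6% of all genes, and 1 was lower, against 6.44%: Rpl29, Rpl7l1, Rpl39l and Rpl7 had limma adjusted p = 0.0286, 0.0315, 0.0364 and 0.0479, and Rps3a2 was the lower one at 0.0367. With the block and median-of-ratios scaling together 0 members were higher, against 8.73% of all genes, and Rps3a2 was again lower, against 8.91%.

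**Figure D2:**
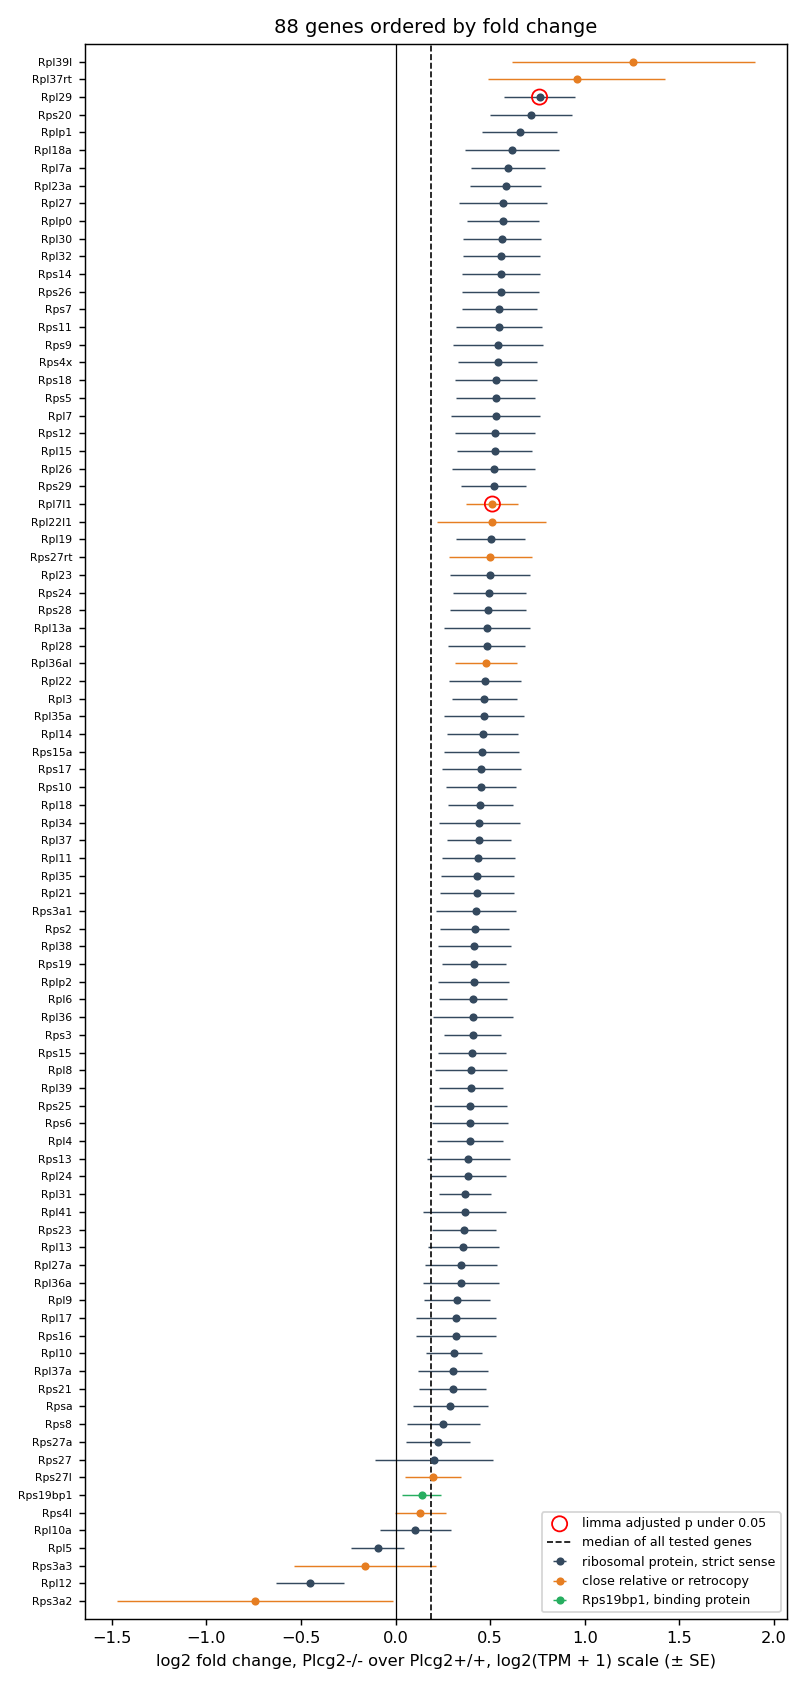
Log2 fold change in Plcg2-/- relative to Plcg2+/+, from log2(TPM + 1) values (x axis, bars are ± SE) for each of the 88 genes (y axis, ordered by fold change). Dark points are ribosomal proteins in the strict sense, orange points close relatives and the green point Rps19bp1; red rings mark Rpl29 and Rpl7l1, and most points lie right of the dashed line at 0.19, the median of all genes tested.

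The spread between libraries was far from equal in the genotypes. Over the members the median coefficient of variation was 4.99% among the Plcg2-/- libraries and 24.8% among the Plcg2+/+ libraries, while over all genes tested it was 13.9% and 15.7%. It was larger in Plcg2+/+ for 82 of 88 members. In 82 members the Plcg2+/+ libraries stood in the same order, with replicate 3 highest, replicate 1 next and replicate 2 lowest. The median member was at 936, 912 and 917 TPM in Plcg2-/- 1, 2 and 3, and at 711, 491 and 799.7 TPM in Plcg2+/+ 1, 2 and 3. All Plcg2-/- libraries lay above Plcg2+/+ 1 in 80 members, above Plcg2+/+ 2 in 82 and above Plcg2+/+ 3 in 61. Plcg2+/+ 3 reached the Plcg2-/- range, or passed it, in 27 members.

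The number of members called turned on single libraries. Without Plcg2+/+ 2 the median log2 fold change of the members was 0.24, beside 0.16 over all genes, with 84 members positive, against 66.3% of all genes, and only Rpl29 passed (limma adjusted p = 0.0378), against 7.43% of all genes higher and 3.23% lower. Without Plcg2+/+ 3 the median was 0.59, beside 0.22 over all genes, and 27 members were higher, against 16.6% of all genes, and 0 lower, against 5.09%. These 27 included Rplp0, Rplp1, Rps3, Rps20 and Rpl22. Without any 1 of the other 4 libraries 0 members were higher, against 4.42%, 14.2% and 6.21% of all genes without Plcg2-/- 1, 2 and 3 and 6.18% without Plcg2+/+ 1, while the members' median stayed between 0.43 and 0.48.

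**Figure D3:**
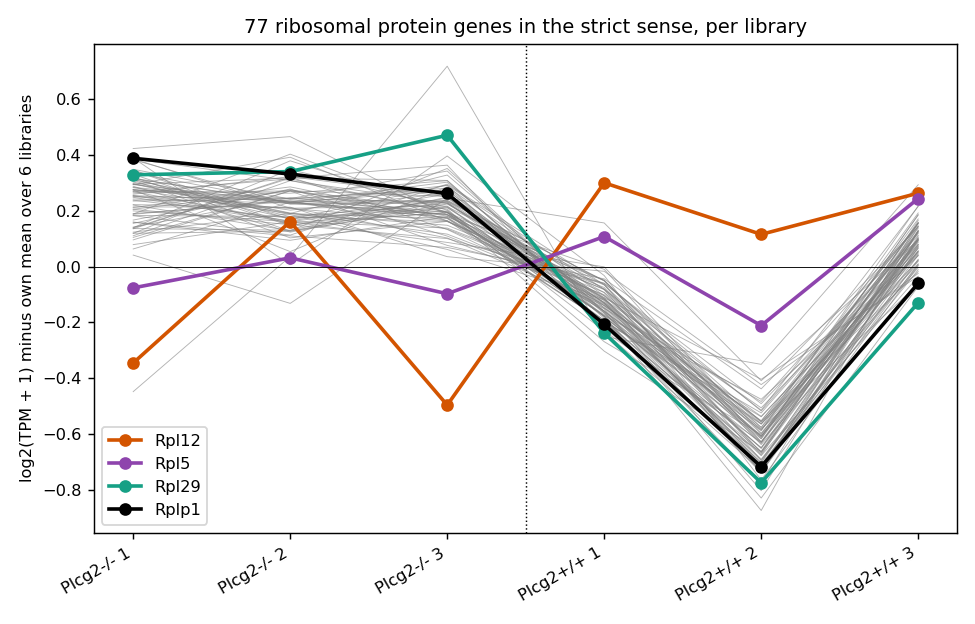
Log2(TPM + 1) of each of the 77 strict ribosomal protein genes minus its own mean over the 6 libraries (y axis), by library (x axis). Each grey line is 1 gene, coloured lines are Rpl12, Rpl5, Rpl29 and Rplp1, and the dotted line parts the Plcg2-/- libraries on the left from the Plcg2+/+ libraries on the right; most lines run level in Plcg2-/- and dip at Plcg2+/+ 2.

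The strict ribosomal proteins had closely similar fold changes. Of these 77, 69 (89.6%) had a log2 fold change within 0.2 of their common median of 0.44, whereas 38.4% of all genes tested lay within 0.2 of the all-gene median, and 30.5% of 334 other genes with a mean of at least 300 TPM lay within 0.2 of theirs. The median was 0.44 for the 46 genes of the large subunit and 0.45 for the 31 of the small subunit; without Plcg2+/+ 2 these were 0.24 and 0.25. The summed TPM of large-subunit genes was 1.36, 1.31 and 1.32 times that of small-subunit genes in Plcg2-/- and 1.33, 1.32 and 1.32 times in Plcg2+/+. The subunits thus kept nearly the same proportion in all 6 libraries, Plcg2+/+ 2 included. Genes that host small nucleolar RNAs had a median of 0.42 (n = 30) and those that host none a median of 0.45 (n = 58), and the 4 X-linked members one of 0.37; without Plcg2+/+ 2 these were 0.23, 0.25 and 0.20.

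**Figure D4:**
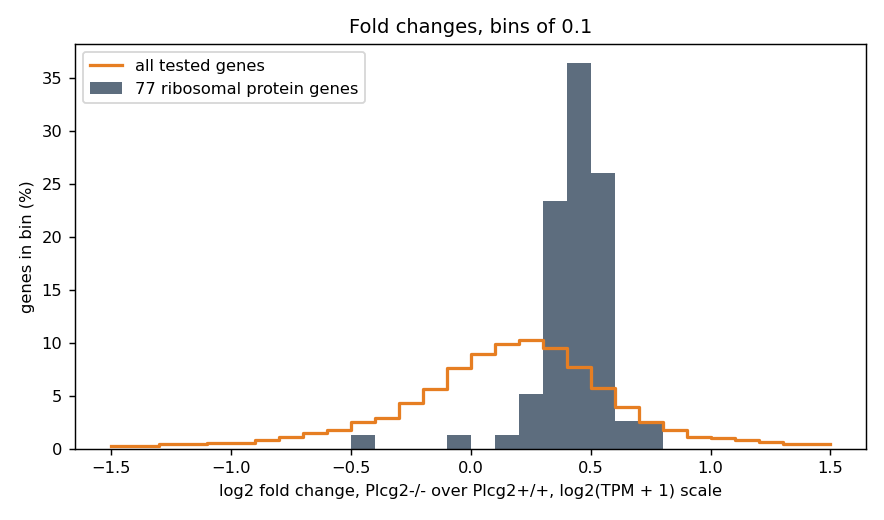
Share of genes (%, y axis) in bins of 0.1 of the log2 fold change in Plcg2-/- relative to Plcg2+/+, from log2(TPM + 1) values (x axis, shown between -1.5 and 1.5). Bars are the 77 strict ribosomal protein genes and the line is all 12652 genes tested; the bars crowd around 0.44 and the line is broad around 0.19.

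Within the large subunit, Rplp1, one of the stalk proteins that recruit elongation factors, had the highest level of all members, at 4109.9, 3952 and 3766 TPM in Plcg2-/- and at 2721, 1909.9 and 3013 TPM in Plcg2+/+. Its groups did not overlap, and its log2 fold change was 0.66 ± 0.20 (SE; limma adjusted p = 0.0586). It was called with a filter of at least 5 TPM (limma adjusted p = 0.0411) and with quantile normalization (0.95; limma adjusted p = 0.0148), where 7.58% of all genes were higher; that normalization ended the call of Rpl7l1 (0.24; limma adjusted p = 0.180). Of the 31-base words of Rplp1, 75.1% also occur in transcripts of other genes. Rplp0 and Rplp2, its partners in the stalk, had log2 fold changes of 0.57 and 0.41 (limma adjusted p = 0.0777 and 0.156). Rpl41, a very short peptide of the large subunit and the second most abundant member, was at 2240.5, 2075 and 1903 TPM in Plcg2-/- and at 1678, 1192 and 2073 TPM in Plcg2+/+, and here Plcg2+/+ 3 fell among the Plcg2-/- values (0.36 ± 0.22, SE; limma adjusted p = 0.265). Rpl3, which lies close to the catalytic centre, was at 569, 534 and 624 TPM in Plcg2-/- and at 437, 330.3 and 496 TPM in Plcg2+/+, without overlap (0.47 ± 0.17, SE; limma adjusted p = 0.0940).

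Of the small subunit, Rps14, Rps29 and Rps12 followed in abundance. Rps14, which sits at the platform of the subunit and whose loss on one chromosome underlies a human anaemia, was at 2339, 2094 and 2102 TPM in Plcg2-/- and at 1653, 1097 and 1779 TPM in Plcg2+/+. Rps29, a zinc-binding protein of the head of the subunit, was at 2152, 2223 and 2046 TPM in Plcg2-/- and at 1631, 1194 and 1710.3 TPM in Plcg2+/+. Rps12, also of the head, was at 2134, 2055 and 2117 TPM in Plcg2-/- and at 1599, 1069 and 1821 TPM in Plcg2+/+. In each of these the groups did not overlap, and the log2 fold changes of 0.56, 0.52 and 0.52 had limma adjusted p = 0.0957, 0.0736 and 0.118. Rps20, chosen after its values were seen, had the highest fold change of the small subunit, 0.72 ± 0.22 (SE; limma adjusted p = 0.0571), at 747, 769 and 633 TPM in Plcg2-/- and at 493, 313 and 530.03 TPM in Plcg2+/+. The levels of these abundant members were ordered Rplp1, Rpl41, Rps14, Rps29 and Rps12 by their mean. Rplp1 was the highest of the 5 in every library, and the means of the other 4 differed by less than their spread between libraries.

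Fold changes were similar across abundance classes down to 100 TPM, and their median was lower in the least abundant members. The 24 members with a mean of at least 1000 TPM had a median log2 fold change of 0.50, or 0.28 without Plcg2+/+ 2, and all 24 were positive. The median was 0.43 for the 42 members between 500 and 1000 TPM and 0.45 for the 14 between 100 and 500 TPM. The 8 members under 100 TPM had a median of 0.02 and 4 of 8 were positive, or 0.21 and 6 of 8 when those with a copy outside the members were summed with it. They include Rpl12 and Rpl5, whose levels are uncertain as described below. The rest are the relatives Rpl7l1, Rpl39l, Rps3a2, Rps3a3 and Rps4l, and Rps19bp1, so this class differs in kind as well as in abundance. Rpl7l1 was called higher, and Rpl39l had the highest fold change of all members. The log2(TPM + 1) scale also understates changes of low values. Across the 77 strict members, which share the same 6 libraries and are not independent, log2 mean TPM and log2 fold change had a Pearson r of 0.64 and a Spearman rho of 0.36. Rpl12 and Rpl5 were the lowest strict members by mean TPM and the only ones with negative fold changes. The correlation was not computed without them. With transcript length r was -0.11, and with the share of 31-base words found in other genes it was 0.08.

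Only 2 of the 77 strict members had a negative fold change, 4 with median-of-ratios scaling: Rpl12 and Rpl5 in both, with Rpl10a and Rps27 added by the scaling. Rpl12 and Rpl5 are both of the large subunit and both low in the table. Rpl12, part of the base of the stalk, was at 48.0, 68.7 and 43.2 TPM in Plcg2-/- and at 75.7, 66.5 and 73.8 TPM in Plcg2+/+, the groups overlapping through Plcg2-/- 2 and Plcg2+/+ 2 (-0.45 ± 0.18, SE; limma adjusted p = 0.115). Without Plcg2-/- 2 it was lower at -0.65 (limma adjusted p = 0.0227), against 4.58% of all genes, and with quantile normalization at -0.75 (limma adjusted p = 0.0428), against 8.15% of all genes. When the libraries were scaled on the members themselves, Rpl12 was the only member lower, against 8.07% of all genes, and 0 were higher, against 2.49%. Rpl5, which binds 5S ribosomal RNA and was chosen after its values were seen, was at 36.1, 39.0 and 35.5 TPM in Plcg2-/- and at 41.1, 32.8 and 45.3 TPM in Plcg2+/+, which overlap fully (-0.09 ± 0.14, SE; limma adjusted p = 0.658).

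Both genes have an expressed copy that the symbol rule does not take. Gm10275, an Rpl12 pseudogene that shares 16.3% of the 31-base words of Rpl12, was at 826, 771 and 839.6 TPM in Plcg2-/- and at 713, 465 and 789 TPM in Plcg2+/+. Its mean was 11.7 times that of Rpl12. Gm15500, which shares 25.2% of the 31-base words of Rpl5, averaged 635 TPM, 16.6 times the mean of Rpl5. These percentages are taken over all annotated transcripts of the member and do not measure how alike gene and copy are. Summed with its copy, Rpl12 was at 875, 839.3 and 883 TPM in Plcg2-/- and at 788, 531 and 863 TPM in Plcg2+/+, a log2 fold change of 0.28 (limma adjusted p = 0.330). The sum of Rpl5 and its copy had one of 0.33. The sources used here do not say how the authors' quantification divided reads between a gene and its copies, so the levels of either alone are uncertain.

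**Figure D5:**
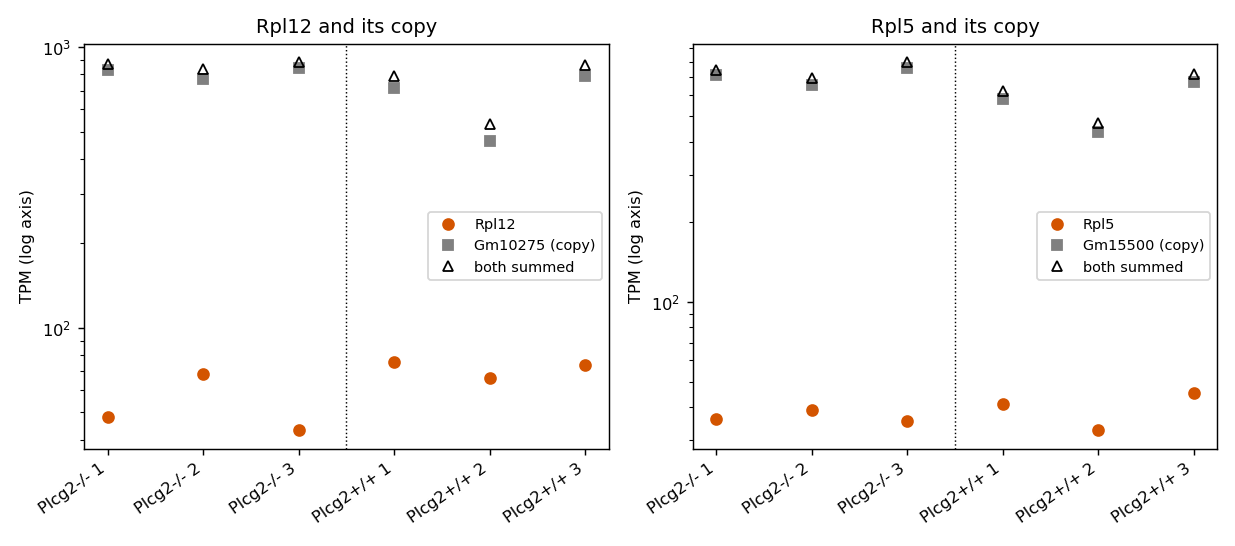
TPM on a log axis (y axis) by library (x axis) for Rpl12 with its copy Gm10275 (left) and Rpl5 with its copy Gm15500 (right). Orange circles are the member, grey squares the copy and open triangles their sum, with the Plcg2-/- libraries left of the dotted line; the copy lies far above the member in every library and the sum follows the copy.

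Such copies were common. The gene that shares most 31-base words could be matched to deposited values for 81 of the 88 members. For 74 of these it is no member. Of these copies 19 had a mean of at least 10 TPM, and 11 exceeded their member. Rpl28-ps1, Rpl10-ps3 and Rps23-ps1 averaged 1375, 1332 and 1272 TPM, against 579, 387 and 481 TPM for Rpl28, Rpl10 and Rps23. In a further fit each of the 74 was replaced by its sum with that copy, and the other members were kept as they were. The median log2 fold change of the 88 members was then 0.45, 86 were positive, against 67.5% of all genes, and all 77 strict members were. The members lower were then 0, against 5.34% of all genes. Those higher were 3, against 15.7%: Rpl29, Rpl7l1 and Rps20 (limma adjusted p = 0.0311, 0.0402 and 0.0439). For Rpl29 and Rpl7l1 the fold changes were the same as in the main fit, 0.76 and 0.51. Summing thus added nothing to these 2 genes and did not check their calls.

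The close relatives gave a more varied picture. Rpl39l, a relative of Rpl39 best known from male germ cells, had the highest fold change of all members, 1.26 ± 0.64 (SE; limma adjusted p = 0.20003). It was low and uneven, at 10.5, 25.8 and 4.71 TPM in Plcg2-/- and at 7.13, 5.48 and 1.43 TPM in Plcg2+/+, so the groups overlapped; within each replicate number the Plcg2-/- value was the higher one. Rpl39 itself was at 679, 661 and 697 TPM in Plcg2-/- and at 570.4, 401 and 595 TPM in Plcg2+/+ (0.40 ± 0.17, SE; limma adjusted p = 0.136). Rpl37rt, a retrocopy of Rpl37, was at 441, 259 and 404 TPM in Plcg2-/- and at 181, 94.8 and 365 TPM in Plcg2+/+, overlapping through Plcg2-/- 2 and Plcg2+/+ 3 (0.96 ± 0.47, SE; limma adjusted p = 0.183).

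Relatives and their parent genes kept their proportions in several pairs. Rpl7l1 made up 5.88 ± 0.713% of its sum with Rpl7 in Plcg2-/- and 5.92 ± 0.919% in Plcg2+/+ (SD, n = 3 each). Rpl22l1, a relative of the RNA-binding protein Rpl22, made up 27.8 ± 2.79% in Plcg2-/- and 27.3 ± 3.32% in Plcg2+/+ of its pair. For Rpl36al with X-linked Rpl36a the shares were 60.9 ± 1.65% in Plcg2-/- and 58.6 ± 1.70% in Plcg2+/+. The Rpl7l1 and Rpl22l1 shares differed between genotypes by less than 1 SD, and that of Rpl36al by more than 1 SD, with ranges of 59.2 to 62.5% in Plcg2-/- and 57.1 to 60.4% in Plcg2+/+ that overlap. Rps4l took 8.34%, 9.08% and 6.85% of its sum with X-linked Rps4x in Plcg2-/-, against 8.91%, 13.2% and 9.48% in Plcg2+/+, overlapping at the border. Rpl3l and Rpl10l were at or near 0 beside Rpl3 and Rpl10, and Rpl10, a late-joining protein of the large subunit, had a log2 fold change of 0.31 ± 0.15 (SE; limma adjusted p = 0.173).

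Rps27 is uncertain for the same reason as Rpl12. Rps27rt, an intronless copy on another chromosome whose printed window matches that of Rps27 from the motif onward, shares 91.6% of its 31-base words with Rps27. Rps27 was at 155, 217 and 348 TPM in Plcg2-/- and at 177, 165 and 259 TPM in Plcg2+/+, a wide overlap (0.20 ± 0.31, SE; limma adjusted p = 0.668). Rps27rt was at 1891, 2019.7 and 1700.1 TPM in Plcg2-/- and at 1424, 966 and 1666 TPM in Plcg2+/+, without overlap (0.50 ± 0.22, SE; limma adjusted p = 0.143). Their sum was 2045, 2236 and 2048 TPM in Plcg2-/- and 1601, 1131 and 1925 TPM in Plcg2+/+, without overlap. Rps27l, the relative that p53 induces, was at 233, 218 and 223 TPM in Plcg2-/- and at 207, 160.2 and 226 TPM in Plcg2+/+ (0.20 ± 0.15, SE; limma adjusted p = 0.365). Rps3a2 and Rps3a3, pseudogenes of Rps3a1 with 92.9% and 78.4% of their words shared, were barely above the limit: Rps3a2 was at 0, 3.99 and 3.04 TPM in Plcg2-/- and 0.99, 6.35 and 5.48 TPM in Plcg2+/+ (-0.74 ± 0.73, SE; limma adjusted p = 0.492). Rps19bp1, the binding protein, was at 30.96, 32.8 and 30.7 TPM in Plcg2-/- and at 27.9, 26.9 and 30.9 TPM in Plcg2+/+ (0.14 ± 0.10, SE; limma adjusted p = 0.366).

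Ribosomal and translation genes outside the symbol rule also had mostly positive fold changes. Fau, which encodes a small-subunit protein fused to a ubiquitin-like protein, and Rack1, a scaffold on the small subunit, had log2 fold changes of 0.29 and 0.46, and neither passed the test. Of 22 translation genes outside the symbol rule with known TOP mRNAs, Fau and Rack1 included, 1 was higher, against 15.6% of all genes, and 0 lower, against 5.31%, with a median of 0.35. The one was Tpt1, translationally controlled tumor protein, at 2613, 2567 and 2418 TPM in Plcg2-/- and 1782, 1317 and 1871 TPM in Plcg2+/+ (0.63 ± 0.17, SE; limma adjusted p = 0.0425, 0.118 with median-of-ratios scaling and 0.0593 with the replicate block). With the block 3 of the 22 were higher, against 19.6% of all genes, the initiation factor subunits Eif3e, Eif3h and Eif3m (limma adjusted p = 0.0242, 0.0348 and 0.0405). Eef1a1, elongation factor 1 alpha, had a log2 fold change of 0.57 ± 0.23 (SE; limma adjusted p = 0.115). Without Plcg2+/+ 2 the median of the 22 was 0.17, beside 0.24 for the members and 0.16 over all genes. With median-of-ratios scaling it was 0.14, beside 0.23 for the members and -0.0045 over all genes. Of 78 mitochondrial ribosomal proteins, which belong to a separate ribosome, 11 were higher and 0 lower, with a median of 0.31, again beside 15.6% and 5.31% of all genes, and 2 were higher with median-of-ratios scaling, against 7.71%. Their median was 0.21 without Plcg2+/+ 2 and 0.11 with median-of-ratios scaling. Mrps6, Mrpl27 and Mrpl30 had the smallest p, with log2 fold changes of 0.88, 0.50 and 0.85 (limma adjusted p = 0.00282, 0.0247 and 0.0293).

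Factors that build ribosomes changed in few cases and in both directions; the shares of all genes to set beside the counts that follow are 15.6% higher and 5.31% lower, or 7.71% and 7.85% with median-of-ratios scaling. Of 19 tested subunits and factors of RNA polymerase I, which makes ribosomal RNA, 1 was higher, the initiation factor Rrn3 (0.47; limma adjusted p = 0.0477), and 0 were lower. Of 11 core and assembly proteins of small nucleolar RNPs 1 was higher, Nufip1, and of 10 dedicated chaperones and importers 0 passed. With median-of-ratios scaling 0 passed in these first 2 lists, and 1 chaperone gene was lower, Grwd1 (limma adjusted p = 0.0395). Among 40 assembly factors of the small subunit 4 were higher and 2 lower: Imp4 rose by 0.57, while Krr1 fell by 0.43 and Utp20 fell by 0.55 on the log2 scale (limma adjusted p = 0.0327, 0.0298 and 0.0327). Among 57 of the large subunit 7 were higher and 0 lower, led by Surf6 (0.76), Ddx24 (0.65) and Noc2l (0.47). With median-of-ratios scaling the counts were 0 higher and 2 lower for the small-subunit factors and 2 higher and 2 lower for the large-subunit factors. With the replicate block the polymerase I list had 3 higher, Polr2f and Twistnb added (limma adjusted p = 0.0429 and 0.0473), the small nucleolar RNP list 2, Nop10 added, the small-subunit factors 5, Rcl1 added, and the large-subunit factors 9 higher and 1 lower, Ddx21 and Eif6 added as higher and Senp3 as lower, against 19.6% and 6.44% of all genes. The medians of the 2 assembly lists, 0.20 and 0.14, lay near the 0.19 of all genes, under the 0.44 of the ribosomal proteins. Without Plcg2+/+ 2 they were 0.14 and 0.07, beside 0.16 over all genes and only 0.24 for the ribosomal proteins. With median-of-ratios scaling they were -0.0094 and -0.073, beside -0.0045 over all genes and 0.23 for the ribosomal proteins.

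Among regulators, 11 of 36 genes of TOP mRNA and mTOR control were higher and 1 lower, against 15.6% and 5.31% of all genes, with 5 and 1 after median-of-ratios scaling, against 7.71% and 7.85%. Larp1, which binds TOP mRNAs, was at 53.9, 50.9 and 59.2 TPM in Plcg2-/- and at 36.8, 30.6 and 38.8 TPM in Plcg2+/+, a rise of 0.62 ± 0.13 (SE; limma adjusted p = 0.0184). The kinase genes Mtor and Rps6kb1 rose by 0.59 and 0.78 (limma adjusted p = 0.0340 and 0.0388; 0.131 and 0.0760 with median-of-ratios scaling). The gene lower was Rps6ka2, a ribosomal S6 kinase of the MAP kinase pathway, at 3.15, 4.94 and 5.93 TPM in Plcg2-/- and 24.9, 25.4 and 17.4 TPM in Plcg2+/+. Of 10 genes of the MYC network 2 were higher and 0 lower, namely Max, the obligate partner of MYC (1.17; limma adjusted p = 0.000972), and Mxd1, which competes with it (0.96; limma adjusted p = 0.0192). Myc itself was at 5.48, 5.79 and 12.7 TPM in Plcg2-/- and at 14.3, 10.6 and 18.01 TPM in Plcg2+/+ (-0.83 ± 0.32, SE; limma adjusted p = 0.108, or 0.0261 with the replicate block). Of 12 genes of the p53 axis that answers to failed ribosome assembly, 4 were higher, Trp53 and Cdkn2a among them (0.64 and 1.69), and 2 lower, with Phlda3 at -1.46 (limma adjusted p = 0.0123, 0.00852 and 0.00518). These MYC and p53 counts stand beside the same 15.6% and 5.31% of all genes. The block added Rheb of the mTOR list and Cdkn1a of the p53 list as higher (limma adjusted p = 0.0493 and 0.0188). Of the called genes named in these last 3 accounts, Mrps6, Rps6ka2, Max and Phlda3 kept an adjusted p below 0.05 without any 1 library, and the others reached 0.0511 to 0.153 without at least 1.

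The members also followed each other within genotypes. The deviation of each gene from its genotype mean, over the 6 libraries, correlated above 0.9 with the mean deviation of all members in 75 of 88 members (85.2%), each member being part of that mean, and in 5.48% of 9162 other genes with a mean of at least 5 TPM. The mean deviation was 0.07, -0.36 and 0.29 on the log2 scale in Plcg2+/+ 1, 2 and 3 and within 0.02 of 0 in the Plcg2-/- libraries, so the measure rests mostly on Plcg2+/+ 2 and 3. The members under 0.5 were Rpl39l, Rps3a2, Rps3a3, Rpl12, Rps4l and Rps27. The 5 other genes most like the members by this measure were Vnn3, a pantetheinase gene (r = 0.998), Yaf2 (r = 0.997), Gdf15, a stress-induced cytokine (r = 0.997), Fpr1, the formyl peptide receptor (r = 0.996), and Pno1, an assembly factor of the small subunit (r = 0.994). Pno1 was at 37.4, 37.1 and 36.0 TPM in Plcg2-/- and at 25.5, 19.9 and 28.6 TPM in Plcg2+/+, in Plcg2+/+ the same order of libraries as in most members.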

How the data were processed

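The deposited values are TPM, computed by the authors per gene, with 1 column per sample that sums to 1000000. The depth behind them is unknown, since TPM keeps none. Libraries were polyA-selected and read as 150-bp pairs, per the labels' protocols. Salmon 1.3.0, DESeq2 1.30.1 and R 4.0.4 with build GRCm38.p6 were used per the submitters' processing notes; their roles are not stated. All columns were matched to samples by name, and groups came from the labels.

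TPM was set to log2(TPM + 1) without further scaling. The 12652 genes with a mean of at least 1 TPM were tested two-sided by limma 3.58.1 under R 4.3.3 (prior variance following the mean, degrees of freedom 4 residual and 2.97 prior, no covariate), with Benjamini-Hochberg adjustment over all of them and a threshold of 0.05. The test was checked on simulated data with independent errors of equal variance in both genotypes. That check does not cover genes that shift together by library or spread unequally between genotypes, as the members did. Sums and medians over members carry no p. Tables and plots used Python 3.11.15, pandas 2.3.3, numpy 2.4.6 and matplotlib 3.10.9.

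The members and lists were chosen with earlier results of these data known. Named were all called members, the 5 highest and 3 lowest by mean TPM, the 3 highest and 3 lowest by fold change, both genes of 9 pairs of relatives, up to 3 genes of smallest p per other list, and Myc, Larp1, Mtor, Rps6kb1, Fau, Rack1 and Eef1a1; a further gene of this rule is not reported here, and other members named were chosen after their values were seen. Positions and gene types came from GENCODE M21 (GRCm38), in which all 88 members were found. A copy is the gene whose transcripts share most of a member's 31-base words. The words of all annotated transcripts of a gene were pooled, so a share depends on how many transcripts are annotated. Rps27, with 9, shares 27.4% of its words with Rps27rt, and Rps27rt, with 1, shares 91.6% with Rps27. Start windows are RefSeq's; proteins were not analysed here.

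Replicate numbers 1 to 3 come from the titles and occur in both genotypes. Over all genes tested, deviations from the genotype means of same-numbered libraries had correlations of 0.295, 0.193 and 0.147. Each is above 0.1, and over the members alone they were 0.80, 0.81 and 0.70. The numbers were therefore treated as pairs in an alternative fit, the replicate block. The main fit and its p-values have no block and leave such a pairing out. The calls that the block changed are given beside the counts or under the dependence on processing.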

Additional observations from a re-analysis of the deposited data

How the results depend on the processing

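The median log2 fold change of the 88 members stayed positive under all alternatives tried but one, and counts of called members did not keep. The count higher, 2, became 0 with no filter, with median-of-ratios scaling alone or with the replicate block, rescaled without mitochondrially encoded genes with or without the members, with the Y-linked covariate, and, both chosen after seeing the data, scaled on the members or without both libraries numbered 2. It became 1 with a constant prior variance, and 4 with a mean TPM of at least 5 or the replicate block. Leaving out 1 library gave 0 to 27 higher and 0 to 1 lower. The count lower, 0, became 1 with quantile normalization, scaled on the members and without both libraries numbered 2 (Rpl12 each time), and with the replicate block with or without median-of-ratios scaling (Rps3a2); among the other lists, the block's calls not given elsewhere are Mrpl10, Mrpl36 and Mrpl58 gained and Mrpl45, Mrpl49 and Mrps18a lost among the mitochondrial ribosomal proteins, the count staying at 11. Summing members with their copies, also chosen after seeing the data, turned Rpl12 to 0.28. Scaled on the members, by construction near 0, the median was -0.053, and Rpl10 was at -0.19, Rpl22 -0.021, Rpl3 -0.027, Rpl36a -0.15, Rpl36al -0.017, Rpl39 -0.10, Rpl41 -0.13, Rps19bp1 -0.36, Rps27 -0.29, Rps27l -0.30 and Rps4l -0.36. Rps19bp1, Rps27, Rps27l and Rps4l also turned with median-of-ratios scaling, with or without the replicate block (-0.070, -0.010, -0.017 and -0.082), and with quantile normalization (-0.10, -0.029, -0.036 and -0.17), and Rps4l when rescaled without mitochondrially encoded genes (-0.00057). Without 1 library Rps27 ranged between -0.10 and 0.48 and Rps3a3 between -0.46 and 0.17. Other causes of these shifts were not tested. With 3 libraries per genotype and unknown depth, small differences of single genes cannot be resolved.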
